A study of Mus musculus with 4 samples.

Results

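Genes of autonomic neurons and their synapses were followed in the inferior vena cava, the large vein that drains the lower body. The group has 9 genes (Th, Dbh, Npy, Chrna3, Slc10a4, Syt1, Snap25, Stmn2 and Lrrn1) out of 18820 genes measured through a probe set that the platform annotation ties to exactly 1 symbol. The genes were selected on their function and on their log2 values on these same 4 arrays, so every value of theirs is a description and no test was run. Each of the 9 genes had 1 probe set, and all 9 were among the 14115 genes kept after genes under the 25th percentile of mean log2 (2.29) were set aside.

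The vein came from Cd39-/- mice (CD39 knockout) and wild-type C57BLK6 mice, all bred into C57BL/6J for at least 8 generations and 8 to 10 weeks old. CD39 is a surface enzyme, encoded by Entpd1, that breaks down extracellular ATP and ADP. In each genotype the vein was either ligated below the renal veins for 48 h to provoke a stasis thrombus, or dissected without ligation (sham). Side branches of the ligated veins were also tied and back branches cauterised, per the labels' protocols. RNA of 4 mice was pooled into 1 array for each of the 4 groups, so no difference has a replicate check, and how precise a value is cannot be known. The labels do not give the sex of the pooled mice, whether their ligation was complete or partial, or whether clot went into the RNA.

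Sympathetic neurons sit in ganglia along the aorta and vena cava and send axons into the walls of vessels. They receive acetylcholine through nicotinic receptors that contain the subunit encoded by Chrna3. They make noradrenaline with the enzymes tyrosine hydroxylase (Th) and dopamine beta-hydroxylase (Dbh), store it in vesicles with neuropeptide Y (Npy), and release it when the calcium sensor synaptotagmin 1 (Syt1) and the membrane fusion protein SNAP-25 (Snap25) act on docked vesicles. In pooled tissue RNA, fewer cells of a type and less RNA per cell cannot be told apart.

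Promoter windows of 300 bases, from 250 bases before to 50 after the start site (RefSeq, build GRCm38.p6), were at hand for 7 of the 9 genes in 8 windows. Windows of 3 genes are shown, since Th and Dbh encode the enzymes that define the noradrenergic neuron and Slc10a4 had the lowest mean ligation difference of the 9. In the first and second window the capitals mark the cyclic AMP response element TGACGTCA and the homeodomain core ATTAG, and in the third the GC box GGGCGG, each searched on both strands. They are 3 of 16 motifs looked for in these windows and were chosen after their matches were seen.
Th, chr7:142899946-142900245, minus strand: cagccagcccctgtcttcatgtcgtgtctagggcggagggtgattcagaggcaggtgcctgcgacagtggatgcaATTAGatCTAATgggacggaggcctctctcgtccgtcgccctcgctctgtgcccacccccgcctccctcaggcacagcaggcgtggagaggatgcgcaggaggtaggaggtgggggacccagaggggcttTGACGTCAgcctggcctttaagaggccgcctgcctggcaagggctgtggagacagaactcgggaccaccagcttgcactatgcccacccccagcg
Dbh, chr2:27165257-27165556, plus strand: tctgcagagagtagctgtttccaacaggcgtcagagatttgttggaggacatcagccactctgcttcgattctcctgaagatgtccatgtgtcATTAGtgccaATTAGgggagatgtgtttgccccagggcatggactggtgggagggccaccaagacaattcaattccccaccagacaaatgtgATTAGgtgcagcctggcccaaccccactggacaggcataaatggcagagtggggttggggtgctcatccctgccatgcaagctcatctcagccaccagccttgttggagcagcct
Slc10a4, chr5:73006654-73006953, plus strand: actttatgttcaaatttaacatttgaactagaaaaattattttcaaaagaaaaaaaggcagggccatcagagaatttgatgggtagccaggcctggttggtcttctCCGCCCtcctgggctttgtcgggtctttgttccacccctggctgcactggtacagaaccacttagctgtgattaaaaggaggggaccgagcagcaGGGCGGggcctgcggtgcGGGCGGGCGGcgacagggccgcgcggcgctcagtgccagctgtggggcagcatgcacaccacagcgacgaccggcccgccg
TGACGTCA is the same on both strands. It lay in the Th window at position -45 from the start site and in no other of the 8 windows, against 1.79% of all 32851 windows. ATTAG, the kind of site to which PHOX2 proteins of autonomic neurons bind, occurred 3 times in the Dbh window (at -157, -147 and -65), 2 times in the Th window (at -175 and -168) and once in one of the windows of Syt1. At least 1 match was held by 24.6% of all windows and at least 2 by 4.76%. GGGCGG occurred 4 times in each of the Slc10a4 and Lrrn1 windows, a number reached by 5.49% of all windows, and at least once in a window of 6 of the 7 genes, against 35.7% of all windows. In Slc10a4 the matches at -31 and -27 overlap. These matches are a description of the letters in the windows, and the arrays do not bear on the use of any of them. Of the other 13 motifs, the cyclic AMP element variant TGACGCA, the TATA box, both parts searched of the neuron-restrictive silencer element and 2 paired homeodomain sites were in no window of the 7 genes. The AP-1 site TGANTCA was found for 1 gene (7.81% of all windows) and the E-box CATCTG for 1 (17.2%). The shorter TGACG was found for 2 genes (20.8%) and GGACAG, the start of the second silencer part, for 2 (22.2%). The E-box CAGCTG was found for 3 (16.3%), the CCAAT box for 4 (37.4%) and CACCC for 6 (57.5%).

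Before the genes are described, the arrays themselves need a word. Entpd1 had a log2 value of 6.14 on the array labelled Cd39-/-, ligated, 4.16 on the Cd39-/- sham array, 6.17 on the wild-type ligated array and 7.11 on the wild-type sham array. Its level thus goes against the label of the ligated Cd39-/- array, which is therefore called the array labelled Cd39-/-, ligated. Where the deletion lies relative to this probe set is not known here. Its Cd39-/- minus wild type difference was -2.95 log2 in sham veins, so there the probe set did differ by genotype, and -0.03 with ligation. The reason was not tested. Wherever genotypes are named below, they go by the labels. Background was gauged from 1006 probe sets of olfactory receptors, whose 95th percentile was 2.68 log2 on the array labelled Cd39-/-, ligated, 2.97 on the Cd39-/- sham array, 2.66 on the wild-type ligated array and 2.94 on the wild-type sham array. The endothelial and smooth muscle markers (8 of each) lay above it on all 4 arrays.

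All 9 genes were lower on the ligated arrays than on the sham arrays in both genotypes as labelled, and in each of them both ligated values lay under both sham values. Values are log2 expression values (RMA). At least 2-fold lower were 9 of 9 genes on the array labelled Cd39-/-, ligated, against Cd39-/- sham (5.80% of all kept genes) and 8 of 9 in wild type (3.63% of all kept genes), with Stmn2 the exception at 1.94-fold. Both at once held for 8 of 9 genes, against 1.45% of kept genes, and the lack of overlap held for 9 of 9, against 26.0% of kept genes. None of the 9 was higher in either genotype, where 10.9% of kept genes on the arrays labelled Cd39-/- and 6.60% in wild type were at least 2-fold higher. All 9 were below 0 in both genotypes, as were 33.6% of kept genes (48.3% on the arrays labelled Cd39-/- and 50.6% in wild type), and 3.63% of kept genes were at least 2-fold higher in both. Since the genes were chosen with these contrasts known, nothing is read from these shares. The median log2 difference of the 9 genes was -2.41 on the arrays labelled Cd39-/- and -1.84 in wild type, while the medians of all kept genes were 0.03 and -0.01.

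**Figure D1:**
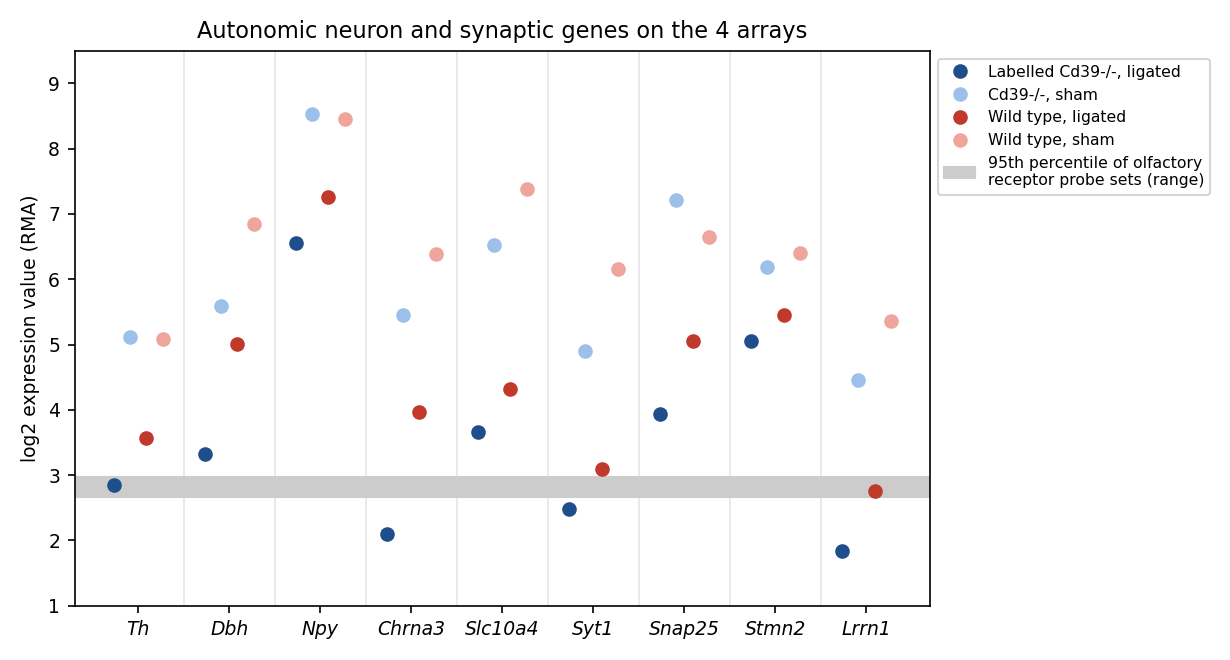
Log2 expression value (RMA, vertical axis) of each of the 9 genes on the 4 arrays (1 pool of 4 mice each, so there are no error bars). The grey band spans the 95th percentiles of olfactory receptor probe sets over the arrays (2.66 to 2.97). For every gene both ligated points lie under both sham points, and the lowest point is the array labelled Cd39-/-, ligated.

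The genes of transmitter synthesis and storage came first. Th, which encodes the rate-limiting enzyme of catecholamine synthesis, had log2 values of 2.85 on the array labelled Cd39-/-, ligated, 5.12 in Cd39-/- sham, 3.57 in wild type, ligated, and 5.08 in wild type, sham. The sham values lay close together, and the ligated values were 4.81-fold lower on the arrays labelled Cd39-/- (-2.27) and 2.84-fold lower in wild type (-1.50). On the array labelled Cd39-/-, ligated, Th was only just above the background percentile of 2.68. Dbh, whose product converts dopamine to noradrenaline, had 3.32 on the array labelled Cd39-/-, ligated, 5.58 in Cd39-/- sham, 5.00 in wild type, ligated, and 6.85 in wild type, sham. It was 4.81-fold lower after ligation on the arrays labelled Cd39-/- (-2.27) and 3.58-fold lower in wild type (-1.84), and of the 9 genes it had the narrowest gap between the lower sham and the higher ligated value (0.58 log2). Npy, a co-transmitter that constricts vessels, had 6.56 on the array labelled Cd39-/-, ligated, 8.52 in Cd39-/- sham, 7.25 in wild type, ligated, and 8.45 in wild type, sham. As for Th, the sham values differed by little, and the ligated ones were 3.90-fold lower (-1.96) and 2.29-fold lower (-1.20) in the same order of genotypes.

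Chrna3 and Slc10a4 are next, a receptor and a vesicle protein. Chrna3 had log2 values of 2.10 on the array labelled Cd39-/-, ligated, 5.45 in Cd39-/- sham, 3.97 in wild type, ligated, and 6.39 in wild type, sham. On the first of these arrays it was not above background, so that its difference there is a bound: with values raised to the olfactory percentile it was at least 6.86-fold lower, and in wild type, where it was above background, it was 5.33-fold lower (-2.41). Slc10a4, an orphan transporter found on synaptic vesicles of monoaminergic and cholinergic neurons, had 3.65 on the array labelled Cd39-/-, ligated, 6.53 in Cd39-/- sham, 4.32 in wild type, ligated, and 7.39 in wild type, sham. It was 7.32-fold lower on the arrays labelled Cd39-/- (-2.87) and 8.38-fold lower in wild type (-3.07), and the gap between its lower sham and its higher ligated value was the widest of the 9 genes (2.20 log2).

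Among the genes of vesicle fusion, Syt1 had log2 values of 2.49 on the array labelled Cd39-/-, ligated, where it was not above background, 4.90 in Cd39-/- sham, 3.10 in wild type, ligated, and 6.15 in wild type, sham. It was at least 4.66-fold lower on the arrays labelled Cd39-/- and 8.29-fold lower in wild type (-3.05). Snap25, the neuronal partner of syntaxin and synaptobrevin in membrane fusion, had 3.94 on the array labelled Cd39-/-, ligated, 7.21 in Cd39-/- sham, 5.06 in wild type, ligated, and 6.64 in wild type, sham. It was 9.68-fold lower on the arrays labelled Cd39-/- (-3.28) and 3.00-fold lower in wild type (-1.58), the only gene of the 9 whose differences in the genotypes were over 2-fold apart (-1.69 log2).

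Stmn2 and Lrrn1 belong to axon growth and the cell surface. Stmn2, a tubulin-binding protein of growing and regenerating axons, had log2 values of 5.06 on the array labelled Cd39-/-, ligated, 6.19 in Cd39-/- sham, 5.44 in wild type, ligated, and 6.40 in wild type, sham. Its differences were the smallest of the 9, at -1.13 (2.19-fold lower) and -0.96 (1.94-fold lower). Lrrn1, a membrane protein with leucine-rich repeats that neurons carry, had 1.84 on the array labelled Cd39-/-, ligated, where it was not above background, 4.46 in Cd39-/- sham, 2.76 in wild type, ligated, just above the percentile of 2.66, and 5.36 in wild type, sham. It was at least 3.43-fold lower on the arrays labelled Cd39-/- and 6.08-fold lower in wild type (-2.60).

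By mean ligation difference over both genotypes, ranked from the lowest of the 14115 kept genes, Slc10a4 was at place 8, Chrna3 at 12, Syt1 at 17, Lrrn1 at 19 and Snap25 at 25. Dbh was at 60, Th at 76, Npy at 138 and Stmn2 at 455. The sizes of Chrna3, Syt1 and Lrrn1 include a value under background, so their order among the lowest genes is approximate. No gene of the 9 was under background on a sham array.

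**Figure D2:**
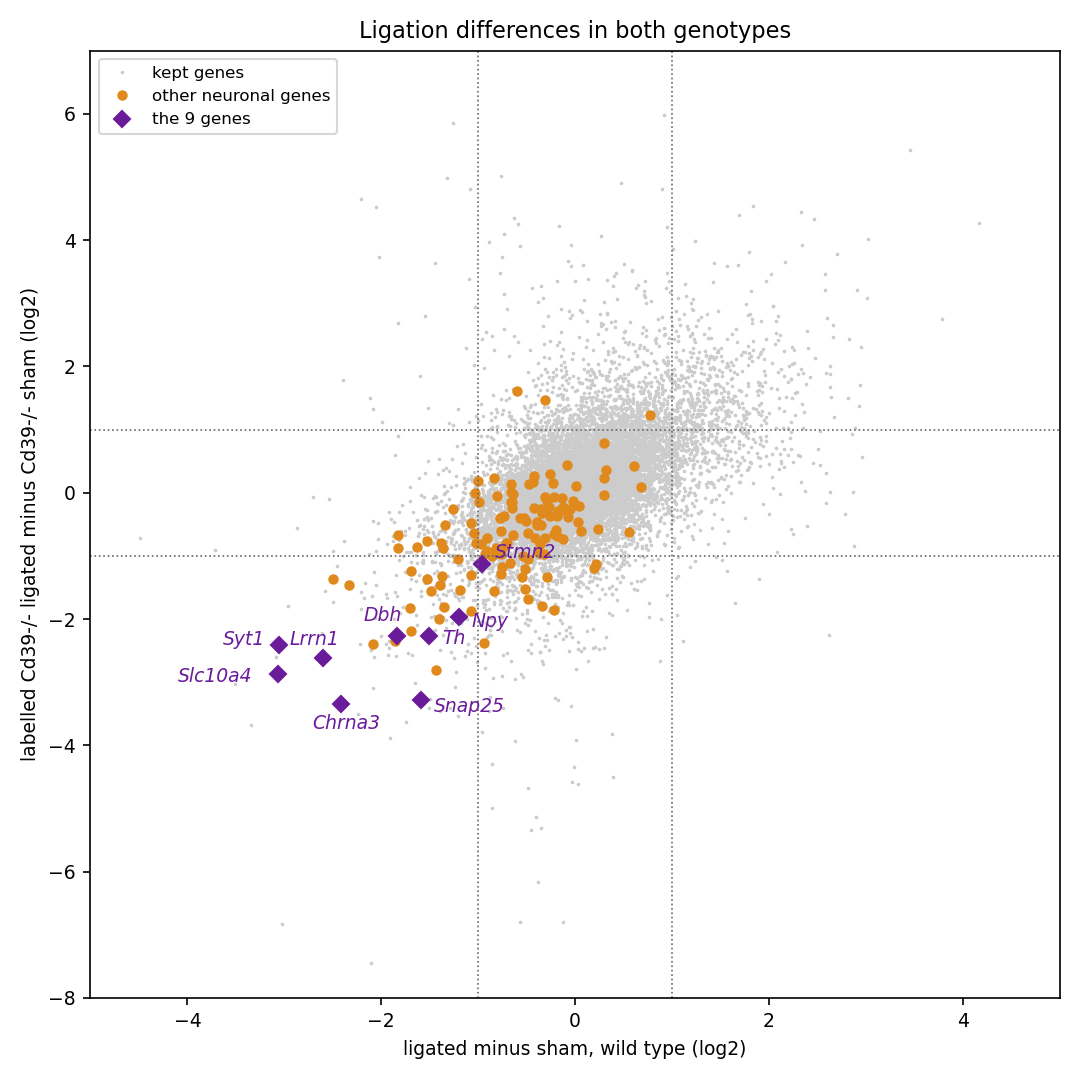
Ligated minus sham log2 difference in wild type (horizontal) and on the arrays labelled Cd39-/- (vertical) for the 14115 kept genes (grey), other neuronal genes (orange) and the 9 genes (purple). Dotted lines mark 2-fold; all of the purple points but Stmn2, at -0.96 in wild type, lie beyond both lines on the lower left.

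The genotypes, as labelled, were then compared within each surgery, using the same 4 arrays over again. Given the Entpd1 values, the differences with ligation are between labels and cannot be read as effects of CD39 loss. With ligation, all 9 genes were lower on the array labelled Cd39-/- than in wild type, where 54.2% of kept genes were below 0. The median log2 difference was -0.72, against -0.03 over all kept genes, and 3 of 9 were at least 2-fold lower (2.66% of kept genes): Chrna3 (at least 2.45-fold), Dbh (3.22-fold) and Snap25 (2.17-fold). None was at least 2-fold higher (3.61% of kept genes). The other 6 ranged from -0.91 (Lrrn1) to -0.38 (Stmn2), but with values under background raised to it Lrrn1 came to -0.08 and Syt1 to -0.42.

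In sham veins the direction differed among the genes. Of the 9, 6 were lower in Cd39-/- than in wild type (56.7% of kept genes) and 3 higher, none of them 2-fold (2.95% of kept genes), with a median of -0.86, against -0.07 over all kept genes. At least 2-fold lower were Dbh (-1.26, or 2.40-fold) and Syt1 (-1.25, or 2.38-fold), against 3.54% of kept genes. Chrna3 (-0.93), Lrrn1 (-0.90) and Slc10a4 (-0.86) were lower by less than 2-fold, and Stmn2 stood at -0.21. Th (0.04) and Npy (0.07) were nearly level and Snap25 was 1.48-fold higher (0.57). Th and Dbh, which act in the same pathway, thus stood apart in the sham veins. Their ligation differences were level on the arrays labelled Cd39-/- (-2.27 each), where Th came close to background. They were -1.50 and -1.84 in wild type, and the genotype differences with ligation were -0.72 and -1.69. The ligation differences use these sham values as their reference: against wild-type sham, the array labelled Cd39-/-, ligated, had a median of -3.52 over the 9 genes, and again 9 of 9 were at least 2-fold lower.

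**Figure D3:**
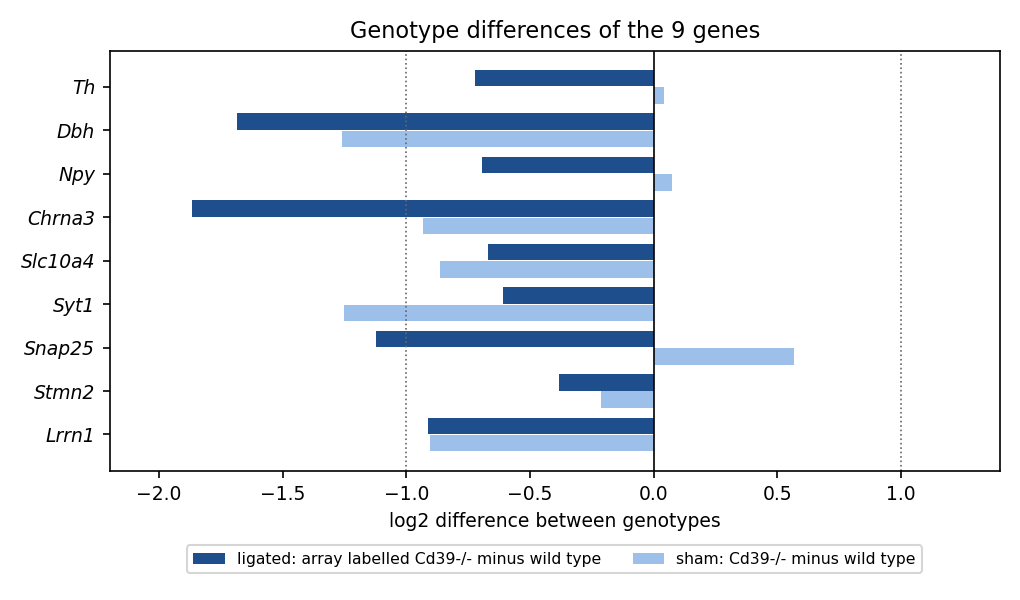
Log2 difference between genotypes (Cd39-/- minus wild type) of the 9 genes with ligation (dark, the array labelled Cd39-/-) and in sham veins (light), 1 array per group; dotted lines mark 2-fold. With ligation every bar points below 0, while in sham veins Snap25, Npy and Th lie above it (0.57, 0.07 and 0.04).

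Other neuronal genes were taken from lists made with earlier results of these arrays known. Of 186 such genes outside the 9, 163 were measured and 126 kept. On the arrays labelled Cd39-/-, 34 of the 126 were at least 2-fold lower after ligation (5.80% of kept genes) and 3 higher (10.9%). In wild type 31 were lower (3.63% of kept genes) and 0 higher (6.60%). Their median differences were -0.64 and -0.56, against 0.03 and -0.01 over all kept genes. With values at or under background raised to it these medians came to -0.43 and -0.48, against -0.07 and -0.09 over all kept genes, and when the dim genes were then added too to -0.29 and -0.29, level with all genes (-0.29 and -0.28). Lower at least 2-fold in both were 18 (1.45% of kept genes). In 85 of the 126 both ligated values lay under both sham values (26.0% of kept genes). The background percentiles were lower on the ligated arrays too (2.68 and 2.66, against 2.97 and 2.94 on the sham arrays). Their part in the 85 was not tested. These lists had 71 to 90 of their measured genes at or under background on the ligated arrays and 60 to 69 on the sham arrays, and 8 of the 18 were above background on all 4 arrays. With values raised to background 15 of the 18 stayed past 2-fold in both, and Rab3c, Napb and Kif5c did not. In the next paragraphs a difference given as a bound has such raised values. The shares of all kept genes given above also stand beside the counts of single lists there. The 3 that were higher on the array labelled Cd39-/-, ligated, named for their small number, were Gch1, which makes the cofactor of tyrosine hydroxylase (1.47), Nsf, which takes apart spent fusion complexes in all cells (1.23), and the semaphorin receptor Plxna4 (1.61).

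In transmitter handling, 1 of 9 kept genes was at least 2-fold lower on the arrays labelled Cd39-/- and 7 of 9 in wild type. Slc6a2, the noradrenaline transporter of sympathetic terminals, had log2 values of 2.96 on the array labelled Cd39-/-, ligated, 3.63 in Cd39-/- sham, 3.05 in wild type, ligated, and 4.88 in wild type, sham, so that the high value was that of wild-type sham. Ddc, the enzyme between Th and Dbh, differed by -0.76 on the arrays labelled Cd39-/- and -1.53 in wild type, the acetylcholine-degrading Ache by -0.86 and -1.63, and the monoamine oxidase Maob by -1.37 and -1.53. Of the nicotinic subunits 7 of 15 were kept; Chrnb4, which forms the ganglionic receptor with the product of Chrna3, differed by -0.88 and -1.37, while Chrna2, Chrna7 and Chrnd were at or under background on all 4 arrays.

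Transcription factors of sympathetic neurons were dim and none passed 2-fold in both genotypes. Of 10 kept, 0 were at least 2-fold lower on the arrays labelled Cd39-/- (5.80% of kept genes) and 2 in wild type (3.63%). Both ligated values lay under both sham values in 8 of them (26.0% of kept genes). At or under background were 6 of the 10 on the array labelled Cd39-/-, ligated, and 5 in wild type, ligated. Hand2, which holds the noradrenergic program in mouse sympathetic neurons, had 2.57 on the array labelled Cd39-/-, ligated, where it was not above background, 3.37 in Cd39-/- sham, 2.91 in wild type, ligated, and 4.30 in wild type, sham. Gata3 differed by -0.97 and -0.85 in the same order, and Isl1 and Hand1 were at or under background on both ligated arrays, with bounds of -0.62 and -0.95 for Isl1 and of -0.67 in wild type for Hand1, which was at or under background in Cd39-/- sham too.

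Of the vesicle and release genes 26 were kept, with 7 at least 2-fold lower on the arrays labelled Cd39-/-, 6 in wild type and 4 in both. The 4 were the vesicle phosphoprotein Syn2 (-1.36 and -2.50), the vesicle GTPase Rab3b (bound -1.03, and -1.35 in wild type), its relative Rab3c (bounds -0.92 and -1.07) and Napb (bounds -0.64 and -1.25), a brain form of the attachment protein of NSF. By these bounds Rab3c and Napb do not pass 2-fold on the arrays labelled Cd39-/-, which leaves 2 of the 4. Among neuronal cytoskeleton and axon genes, 4 of 25 were lower in both. They were the neurofilaments Nefm (-2.40 and -2.08) and Nefl (bound -2.15, and -1.69 in wild type), the reticulon Rtn1 (-2.82 and -1.43) and the RNA-binding protein Elavl2 (bound -1.16, and -1.39 in wild type). All 4 stayed past 2-fold by their bounds.

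Peptide and granule genes gave 5 of 17 lower in both. Cpe, a peptide-processing enzyme, differed by -1.56 on the arrays labelled Cd39-/- and -1.49 in wild type, with levels from 6.18 to 8.49 log2, all well above background. The enkephalin precursor Penk differed by -1.53 and -1.18, and the granin Scg2 by -1.46 and -2.33. Scg3 had a bound of -1.91 and a difference of -1.85 in wild type, and Resp18 bounds of -1.74 and -1.02. Of ion channel and axonal motor genes 3 of 14 were lower in both, the motor Kif1a (-1.04 and -1.21), the sodium channel Scn2a (bound -1.17, and -1.07 in wild type) and the motor Kif5c. Kif5c was at or under background on both ligated arrays and its bounds of -0.54 and -0.79 pass 2-fold in neither genotype, which leaves 2 of 14. Scn7a, a sodium channel that Schwann cells carry too, differed by -2.38 and -0.94. None of 15 neurotrophic factor and receptor genes was lower at least 2-fold in both; Ret, a receptor for GDNF family ligands, differed by -0.51 and -1.35, its co-receptor Gfra2 by -1.85 and -0.22, and the neurotrophin receptor Ntrk3 by -1.69 and -0.48. Npy1r, the NPY receptor of vascular smooth muscle, was lower in both, with 2.26 on the array labelled Cd39-/-, ligated, not above background, 4.13 in Cd39-/- sham, 4.05 in wild type, ligated, and 5.12 in wild type, sham, with a bound of -1.46 and a difference of -1.07 in wild type.

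Relatives of the 9 genes gave differences in both directions. Snap23, the form of SNAP-25 found in most cells, had 8.50 on the array labelled Cd39-/-, ligated, 6.10 in Cd39-/- sham, 7.81 in wild type, ligated, and 6.75 in wild type, sham, and was thus higher after ligation by 2.40 and 1.06 log2. Snap29 (0.31 and 0.44) and Snap47 (0.05 and 0.20) were within 2-fold. Stmn1, the stathmin of dividing cells, differed by 0.43 and 0.61, while the neuronal Stmn3 differed by -0.67 and -0.65. In the synaptotagmin family 1 of 17 kept genes was at least 2-fold lower in both, Syt1 itself, with Syt4 at -1.18 and -0.76 and Syt9, at or under background on both ligated arrays, at bounds of -0.33 and -1.26. Sytl2 (bound -0.34, and -1.57 in wild type) and Syt17 (bound -0.43, and -1.18 in wild type) passed 2-fold in wild type only. Slc10a7, a broadly expressed relative of Slc10a4, differed by 0.50 and 0.57, and Slc10a1 by a bound of 0.53 and by 0.13 in wild type. Slc10a6, at or under background on both ligated arrays and in Cd39-/- sham, had a bound of -0.42 in wild type. Of the relatives of Lrrn1, Lrrn3 differed by 0.54 and -1.27 and Lrrn4 by 0.21 and 0.18, and Lrrn2 was at or under background on both ligated arrays.

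**Figure D4:**
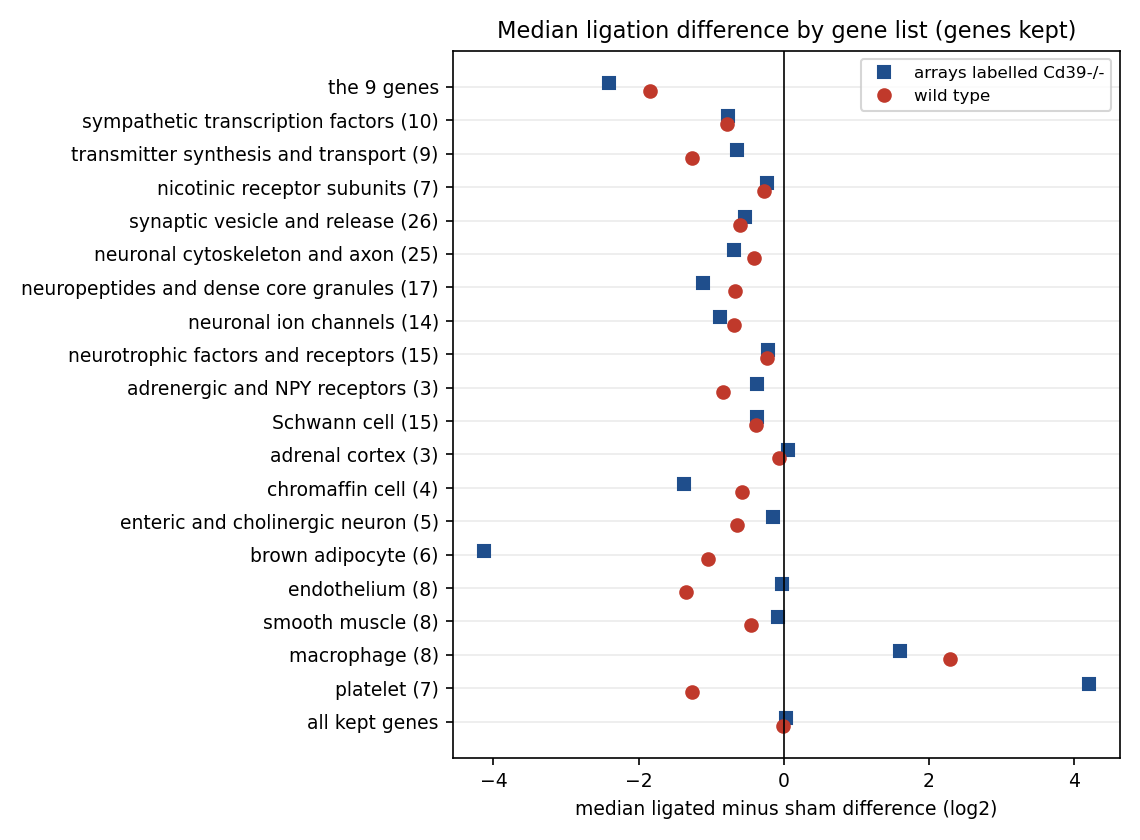
Median ligated minus sham log2 difference of the 9 genes, of each list (kept genes in brackets) and of all kept genes, on the arrays labelled Cd39-/- (squares) and in wild type (circles). The 9 genes lie at -2.41 and -1.84 and all kept genes at 0.03 and -0.01; brown adipocyte genes lie at -4.14 and -1.05, platelet genes at 4.22 and -1.26, and macrophage genes at 1.61 and 2.30.

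Markers of other cell types differed between the same arrays. Schwann cells, which wrap axons, had 15 measured markers, with a median of -0.36 on the arrays labelled Cd39-/- and -0.38 in wild type. Of these, 2 were at least 2-fold lower in both (1.45% of kept genes), S100b (-2.84 and -1.23) and Cdh19 (-1.64 and -1.59). The transcription factor Egr2 (1.59 and 1.36) was the 1 higher in both (3.63% of kept genes). The defining factor Sox10 differed by -0.36 and -0.73. Summed over the list on the linear scale, the level was 568 on the array labelled Cd39-/-, ligated, 819 in Cd39-/- sham, 966 in wild type, ligated, and 918 in wild type, sham. Pmp22, which fibroblasts also carry, made up much of this sum. Without it, a choice made after seeing the data, the other 14 markers summed to 229 on the array labelled Cd39-/-, ligated, 516 in Cd39-/- sham, 282 in wild type, ligated, and 636 in wild type, sham. This sum was lower after ligation in both genotypes, while that of the full list was not in wild type. It weighs most the brightest of the 14 on the sham arrays, Fabp7, Scn7a, S100b and Cdh19. Of all 15 markers 9 were below 0 in both genotypes (33.6% of kept genes), and Egr2 and Pmp22 were above 0 in both. On each array 3 to 5 of the 15 were at or under background. The lowest mean differences of the list were those of Fabp7 (-0.91 and -3.72), S100b and Scn7a.

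Chromaffin cells of the adrenal gland also carry Th, Dbh and Npy. Of their 6 markers, Penk and Chgb were above background on all 4 arrays, Chga on 3 and Cartpt on 2. Chgb differed by -1.79 and -0.34, and Chga by a bound of -0.69 and by -0.81 in wild type. Cartpt had a bound of -0.95 on the arrays labelled Cd39-/-. In wild type its sham value (2.50) was under background and its ligated value (2.70) just above. That difference was 0.20 as measured and -0.24 with the sham value raised to background, so its direction is not known. Pnmt, the adrenaline-making enzyme that defines many chromaffin cells, was not above background on any array, with 1.54 log2 on the array labelled Cd39-/-, ligated, 2.24 in Cd39-/- sham, 1.70 in wild type, ligated, and 1.61 in wild type, sham. Neither was Slc18a1. The summed level of the 6 chromaffin markers, Penk mostly, was 62.6 on the array labelled Cd39-/-, ligated, 166 in Cd39-/- sham, 129 in wild type, ligated, and 260 in wild type, sham; Penk, Chga, Chgb and Cartpt of this list are also in the peptide list. Of 8 measured adrenal cortex markers, 6, among them Cyp11a1, Cyp11b1 and Mc2r, were not above background on any array, and Cyp21a1 and Star were above it on all 4. The list summed to 60.3 on the array labelled Cd39-/-, ligated, 56.0 in Cd39-/- sham, 44.3 in wild type, ligated, and 44.5 in wild type, sham. Of 9 enteric and cholinergic markers, 6, Chat, Slc18a3 and Slc5a7 among them, were not above background on any array, while Hoxb5 (-0.89 and -0.52) was above it on all 4, Nos1 on 3 and Calcb on 1. That list summed to 43.8 on the array labelled Cd39-/-, ligated, 54.7 in Cd39-/- sham, 50.0 in wild type, ligated, and 67.5 in wild type, sham. Of 7 measured sensory neuron markers, Avil was above background on 3 arrays (bound -0.62, and -0.45 in wild type) and the other 6, with Scn10a, Trpv1, Pou4f1 and P2rx3, on none. They summed to 26.6 on the array labelled Cd39-/-, ligated, 35.2 in Cd39-/- sham, 29.8 in wild type, ligated, and 35.2 in wild type, sham. The adrenal cortex, enteric and sensory sums hold much background signal, and no change is read from them. The medians of the olfactory probe sets were 1.66, 1.97, 1.68 and 1.85 log2 in the same order of arrays.

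Brown fat, a target of sympathetic axons, differed between the sham pools. Its 7 measured markers summed to 57.0 on the array labelled Cd39-/-, ligated, 2461 in Cd39-/- sham, 55.9 in wild type, ligated, and 171 in wild type, sham, with Ucp1 not above background on either ligated array. Between the sham arrays the median of its kept markers was 3.18 log2 higher in Cd39-/-. Macrophage markers (6 of 8 at least 2-fold higher in both, against 3.63% of kept genes) summed to 2078 on the array labelled Cd39-/-, ligated, 586 in Cd39-/- sham, 2203 in wild type, ligated, and 449 in wild type, sham. Platelet markers summed to 2479 on the array labelled Cd39-/-, ligated, 231 in Cd39-/- sham, 556 in wild type, ligated, and 831 in wild type, sham.

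The wall of the vein itself differed between the arrays as well. Endothelial markers had a median ligation difference of -0.03 on the arrays labelled Cd39-/-, with 0 of 8 at least 2-fold lower (5.80% of kept genes). In wild type they had a median of -1.35, with 7 of 8 (3.63%). They summed to 1072 on the array labelled Cd39-/-, ligated, 856 in Cd39-/- sham, 806 in wild type, ligated, and 1606 in wild type, sham. Smooth muscle markers had medians of -0.08 and -0.44 with ligation, with 3 and 2 of 8 at least 2-fold lower (5.80% and 3.63% of kept genes). Their median genotype difference (Cd39-/- minus wild type) was -1.30 with ligation, where 8 of 8 were below 0 (54.2% of kept genes), and -1.53 in sham veins. They summed to 619 on the array labelled Cd39-/-, ligated, 935 in Cd39-/- sham, 1626 in wild type, ligated, and 2268 in wild type, sham. The part of Schwann cells, chromaffin cells, brown fat, macrophages, platelets, endothelium and smooth muscle in the values of the 9 genes was not tested.

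The kept genes nearest in pattern to the 9 were sought by the Euclidean distance between a gene's 4 log2 values, less their mean, and the average of the same profiles over the 9. That average was -1.60 on the array labelled Cd39-/-, ligated, 0.86 in Cd39-/- sham, -0.64 in wild type, ligated, and 1.38 in wild type, sham. Over these 4 arrays the nearest non-members were Nefm (distance 0.07), Mab21l1 (0.10), Ifit3 (0.11), Il17rd (0.27), Calml4 (0.28), Abca8b (0.30), Dmd (0.39) and Gnao1 (0.41). Of these, Mab21l1 and Abca8b were at or under background on both ligated arrays and Il17rd on the one labelled Cd39-/-. They include the neurofilament Nefm and the neuronal G protein subunit Gnao1, but also the interferon-induced Ifit3 and the muscle protein gene Dmd. Of the 9 genes themselves Lrrn1 lay closest (0.45) and Stmn2 farthest (1.29), although the average contains them. With 4 arrays many of the 14115 genes can share such a profile, and 11 kept genes lay closer to the average than Lrrn1 did.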

How the data were processed

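Total RNA of the vena cava was pooled from 4 mice for each of the 4 groups, amplified from 50 ng and hybridised to 1 Affymetrix array per group, per the labels' protocols and the design text. The authors deposited 1 log2 value per probe set and array; the submitters' processing notes name oligo and RMA. RMA in general subtracts background, quantile normalises and summarises probes, so a global shift between groups would be hidden. No source used here states their versions or a genome build. Scanner files were not used here.

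Of 35556 probe sets, 21218 carried 1 symbol in the platform annotation, 1881 several and 12457 none; the last 2 kinds entered no gene comparison. The brightest probe set by mean over the arrays stood for a gene (1386 of 18820 genes had several), and genes with a mean log2 at or above the 25th percentile (2.29) were kept. All 270 measured symbols of the 9 genes and the 24 lists matched a RefSeq table (GRCm38.p6) through Entrez identifiers. Differences between arrays were computed in Python 3.11.15 (pandas 2.3.3, numpy 2.4.6) and called past 2-fold; with 1 array per group no test was run and no p-value is given. A value at or under its array's 95th percentile of olfactory receptor probe sets was taken as not above background, and for named genes with such a value on 1 side of a difference a bound with that percentile in its place is given. Counts and medians of lists use the values as deposited unless said otherwise. The calculation was tested on simulated data.

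A rule picked genes for naming: the 9 genes, Entpd1, of each list up to 4 kept genes with the largest absolute mean ligation difference, every neuronal or family list gene past 2-fold in the same direction in both genotypes, and the 8 nearest profiles (predicted, RIKEN, microRNA, olfactory and vomeronasal symbols left out). Not all list genes that it picked are named in the text. Gata2, Ntrk2, Ncam1, Sytl4 and Slc18a2 were named only because they were flagged for a closer look. Gch1, Nsf, Plxna4, Cyp11a1, Cyp11b1, Mc2r, Nos1, Sox10, Egr2, Pmp22, Pnmt, Slc18a1 and the cholinergic and sensory genes at background were named outside the rule, after their values were seen. The 9 genes and all lists were chosen with earlier results of these data known. Alternatives were the mean over probe sets, a further quantile normalisation, cyclic loess (limma 3.58.1, R 4.3.3), median centring, no filter on dim genes, values raised to background, and wild-type sham as the reference of the array labelled Cd39-/-, ligated. Raising values to background together with no filter, and the Schwann sum without Pmp22, were added after seeing the data.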

Additional observations from a re-analysis of the deposited data

Results flagged for a closer look

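The 9 genes, the other kept neuronal and family genes and the marker genes named here came to 169. Of these, 16 had differences of opposite direction between the groups compared that were at least 2-fold apart, both as measured and with values raised to background. That is close to the share of all kept genes (9.41%), so nothing is read from the count. Some had a side near 0, such as Sytl4 (ligation difference of -0.10 in wild type) and Pmp22 (genotype difference of 0.10 in sham veins). With 1 array per group no such difference was tested. Of the 9 genes it held for Snap25, whose genotype difference (Cd39-/- minus wild type) was -1.12 with ligation and 0.57 in sham veins, -1.69 log2 apart.

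The ligation difference had opposite directions on the arrays labelled Cd39-/- and in wild type for 8 genes. Those higher on the arrays labelled Cd39-/- were Plxna4 (1.61 against -0.60, or 2.21 apart), Lrrn3 (0.54 against -1.27, or 1.81), Gch1 (1.47 against -0.31, or 1.78), Star (1.35 against -0.28, or 1.63), Sytl4 (1.36 against -0.10, or 1.47) and Gata2 (0.18 against -1.003, or 1.18). Those lower there were Ntrk2 (-1.13 against 0.22, or -1.35) and Ncam1 (-0.63 against 0.56, or -1.19).

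The genotype difference had opposite directions with ligation and in sham veins for Snap25 and 10 other genes. Higher with ligation were Fabp7 (1.29 against -1.52, or 2.81 apart), Plxna4 (1.18 against -1.04), Gch1 (1.37 against -0.41), Snap23 (0.69 against -0.65, or 1.34) and Slc18a2 (0.43 against -0.58, or 1.01). Lower with ligation were Gfra2 (-0.93 against 0.70, or -1.63), Chgb (-0.50 against 0.95, or -1.45), Scn7a (-1.08 against 0.35, or -1.43), Ntrk2 (-0.40 against 0.95) and Pmp22 (-1.01 against 0.10, or -1.12).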

How the results depend on the processing

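No paired analysis was possible because each group is 1 array of pooled RNA. Under the alternatives, 9 of 9 genes stayed at least 2-fold lower on the array labelled Cd39-/-, ligated, 8 or 9 in wild type, 3 in the ligated and 2 in the sham genotype comparison, and both ligated values lay under both sham values in 9 of 9. The mean over probe sets and the missing filter could not change these values, since each of the 9 had 1 probe set and all were kept. The exception in wild type, Stmn2 (-0.96), reached -1.10 after a further quantile normalisation and -1.06 after cyclic loess. The median of the 9 ranged from -2.56 to -2.27 on the arrays labelled Cd39-/- (-3.52 against wild-type sham) and from -2.002 to -1.79 in wild type. The count of other neuronal genes lower in both ranged from 15 to 20 (14 with values raised to background and no filter, an alternative chosen after seeing the data). With values raised to background their medians came to -0.43 on the arrays labelled Cd39-/- and -0.48 in wild type, and without the filter as well to -0.29 in both, since genes at the floor then take the difference between the floors of the ligated and sham arrays. Background limits what dim genes can show, and no setting stands in for replicate pools.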
